A study of Mus musculus with 18 samples.

Results

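Males, which have no estrous cycle, were compared with females of the F2/metestrus group for every gene on chromosomes 1 to 19 in RNA sequencing of spinal dorsal horn tissue (DHSC). The 6 male and 6 F2/metestrus columns of the count table entered the comparison, with 2 series of libraries (replicates 1 to 3 and replicates 4 to 6) as a block. The series were read from the numbers in the column names of the 18 samples. These are 27 to 35 for replicates 1 to 3 and 188 to 196 for replicates 4 to 6, and no label names a batch. Of the 55573 genes in the table, 51201 lay on chromosomes 1 to 19, and 23932 of these had enough counts to be tested. At a false discovery rate (FDR) of 5%, 51 autosomal genes differed (0.213%), 30 of them higher in males and 21 higher in F2/metestrus females. The number depended on the processing. DESeq2 gave 598 calls (351 and 247) and a fit without a filter on low counts 474 (274 and 200). A fit without the library series gave 9, all of them higher in males. The p-values were adjusted over genes of all chromosomes. With autosomal genes alone in the fit there were 26 calls (20 and 6). Among the genes that lost their call there were *Lcn2*, *C1qb*, *Pnoc*, *Sult1a1*, *Csf1*, *Gbp5*, *Gbp9* and *Eif2ak2*.

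All mice were adult C57BL/6J animals without a transgene, and every group had received 2% formalin in a hind paw 2 h before the ipsilateral DHSC of the lumbar cord was taken. Formalin evokes an early and a late bout of pain behavior separated by a quiet interphase. F2/metestrus females had a long interphase and were in metestrus by vaginal cytology, and F1/proestrus females, the third group of 6 samples, had a short interphase and were in proestrus. No sample without formalin was sequenced, so each difference is one between groups that all carried the same injury, and sex cannot be told apart from the stage of the cycle in a comparison with metestrus alone.

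The superficial dorsal horn receives the fibers that carry pain and itch, and its interneurons release peptides, among them opioid peptides that dampen transmission and tachykinins that promote it. Microglia, astrocytes and the meninges around the cord respond to an injury with cytokines, acute phase proteins and interferon-inducible genes. Glucocorticoids released under stress induce a further set of genes in glia and vessels.

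The samples held 73590509 to 125724156 counted reads in males and 78112384 to 113927430 in F2/metestrus, and the group means of these totals did not differ by more than the spread (two-sided exact permutation test, p = 0.4221). Levels are given as CPM, the count scaled to a common library total after TMM normalization over the 18 samples. With 3 counts taken as the smallest signal, the floor was 0.0239 to 0.0408 CPM over the 12 samples, which covers counting error only. The Y-linked gene *Ddx3y*, outside the autosomal set, had 64.0 to 83.0 CPM in males and at most 5 counts in an F2/metestrus sample. The libraries of the 2 series separated on the first principal component, which held 19.4% of the variance. On the second component (13.4%) male samples 4 and 5 lay at opposite ends.

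The 30 genes higher in males were 0.125% of the autosomal genes tested, and the 21 genes higher in F2/metestrus were 0.0877%. Most of the differences were small. The median size of the log2 fold change (males minus F2/metestrus throughout) was 0.51 among the genes higher in males and 0.38 among those higher in F2/metestrus, and 4 genes differed by more than 2-fold. These were *Syce1*, *Lcn2* and *Dpep1*, higher in males, and *Gbp5*, higher in F2/metestrus. The median over all autosomal genes tested was -0.01. All 51 genes had the same direction in replicates 1 to 3 and in replicates 4 to 6. In 29 of the 51 the CPM of the groups did not overlap, against 0.552% of all genes tested. The 51 genes were called on these same samples, so neither the shared direction nor the lack of overlap is separate support for the calls.

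**Figure D1:**
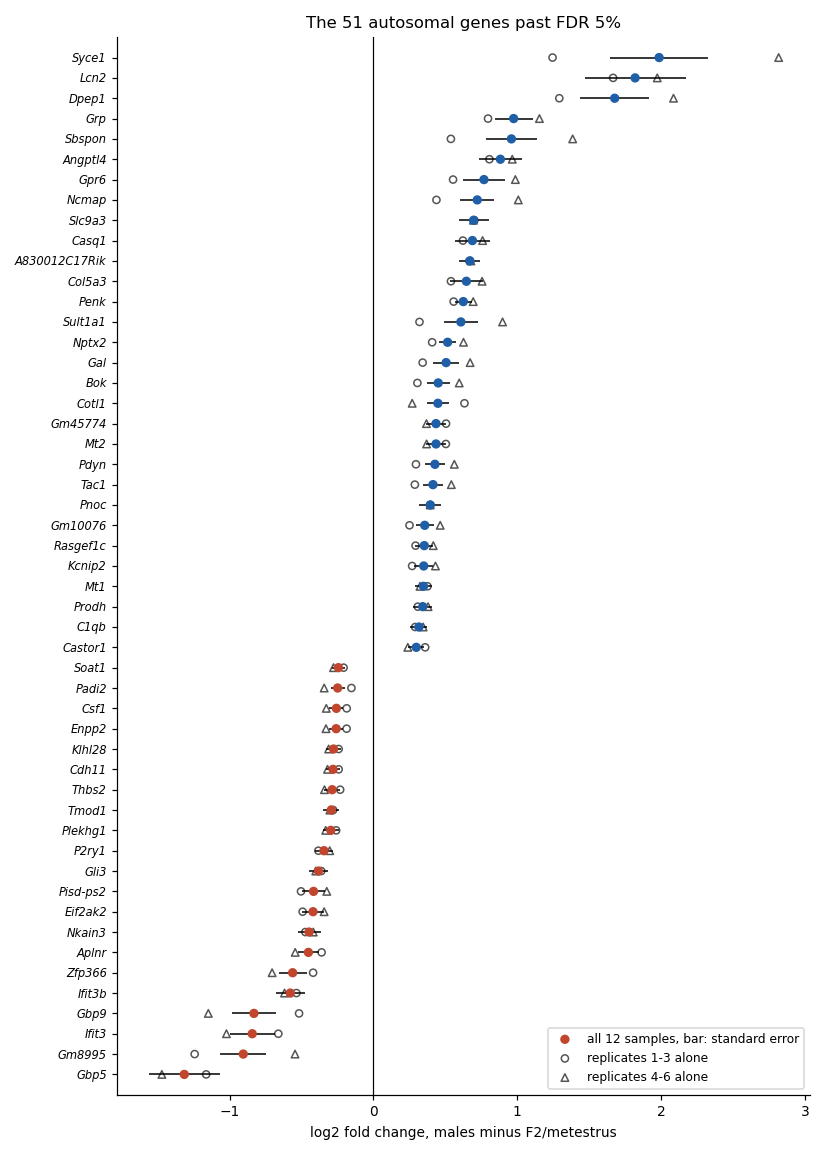
The log2 fold change of males minus F2/metestrus (horizontal axis) for each of the 51 autosomal genes past an FDR of 5%. Filled points are the fit of the 12 samples with bars for the standard error, open circles are replicates 1 to 3 alone and open triangles are replicates 4 to 6 alone. Every open symbol lies on the same side of 0 as its filled point, from 1.99 for *Syce1* to -1.32 for *Gbp5*.

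The number of calls depended on single samples. It was 12, 10, 31, 18, 21 and 15 without F2/metestrus samples 1 to 6 in turn, and 51, 17, 13, 41, 19 and 21 without male samples 1 to 6. The genes called in all 12 of these fits were *Penk*, *A830012C17Rik*, *Nptx2*, *Grp*, *Dpep1* and *Slc9a3*, all higher in males. *A830012C17Rik* overlaps *Penk*, and *Gm45774*, also called, overlaps *Mt2*, so each pair may share reads and need not be 2 separate results. Each of the other 45 lost its call without at least 1 sample while keeping its direction. At an unadjusted p under 0.05 there were 3369 autosomal genes (14.1%), 1761 higher in males (7.36%) and 1608 higher in F2/metestrus (6.72%), and these shares are the background for the gene lists.

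Genes for neuropeptides of the dorsal horn were the group with the most genes called, all higher in males. Of 23 genes tested on the peptide list, 6 passed the FDR (*Penk*, *Grp*, *Pdyn*, *Gal*, *Tac1* and *Pnoc*) and all 6 were higher in males. When males were compared with F1/proestrus, only *Penk* and *Grp* of these 6 passed the FDR. At an unadjusted p under 0.05 there were 14 higher in males and 1 higher in F2/metestrus (*Calca*), and the median log2 fold change of the list was 0.27.

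*Penk*, the precursor of the enkephalins, lies on chromosome 4 (GRCm38 positions 4133531 to 4138819, minus strand). Its level was 392, 477 and 562 CPM in males (lowest, median and highest of 6 samples) and 264, 291 and 348 CPM in F2/metestrus. Every male sample lay above every F2/metestrus sample. The fold was 1.54 (log2 fold change 0.62, standard error 0.06, adjusted p = 5.92e-05), with log2 values of 0.56 in replicates 1 to 3 and 0.69 in replicates 4 to 6. *Penk* was the gene with the smallest p on the autosomes, and it passed the FDR within each library series (adjusted p = 0.0471 and 0.0362). In F1/proestrus its level ranged from 252 to 384 CPM around a median of 291 CPM.

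*A830012C17Rik* is a noncoding transcript on the opposite strand that overlaps the start of *Penk*. It had 21.4, 26.1 and 29.3 CPM in males and 14.4, 15.8 and 17.98 CPM in F2/metestrus, again without overlap of the groups. Its log2 fold change was 0.67 (standard error 0.07, adjusted p = 4.20e-04). Since the strand setting of the counting is not stated, reads of this gene and of *Penk* cannot be told apart where they overlap.

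*Grp*, which encodes gastrin-releasing peptide, a transmitter of itch circuits, was the peptide gene with the largest log2 fold change. Its level was 8.55, 12.9 and 18.04 CPM in males against 5.76, 5.93 and 8.36 CPM in F2/metestrus. The highest F2/metestrus sample, replicate 4, stood apart from the other 5 and still lay below the lowest male. It differed by 0.97 on the log2 scale (standard error 0.13, adjusted p = 0.00425). Its level in F1/proestrus was 5.30, 6.74 and 10.6 CPM.

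The other opioid peptide genes were also higher in males. *Pdyn*, the precursor of the dynorphins, had 49.7, 57.3 and 70.6 CPM in males and 40.5, 44.6 and 45.1 CPM in F2/metestrus, without overlap. Its log2 fold change was 0.43 (standard error 0.07, adjusted p = 0.0300). *Pnoc*, the precursor of nociceptin, had 17.0, 20.1 and 25.6 CPM in males and 12.9, 14.5 and 19.02 CPM in F2/metestrus, with overlap. Its log2 fold change was 0.39 (adjusted p = 0.0491), and it lost the call whichever sample was left out, with adjusted p of up to 0.122.

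*Tac1* encodes the precursor of substance P. It ranged from 48.7 to 71.7 CPM in males (median 54.2) and from 40.3 to 47.6 CPM in F2/metestrus (median 41.4), with a log2 fold change of 0.41 (adjusted p = 0.0341). *Gal*, which encodes galanin, ranged from 14.7 to 23.3 CPM in males (median 20.3) and from 12.8 to 13.99 CPM in F2/metestrus (median 13.4), with a log2 fold change of 0.51 (adjusted p = 0.0341). The groups overlapped for neither gene. *Gal* kept its call in 2 and *Tac1* in 6 of the 12 fits without 1 sample.

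**Figure D2:**
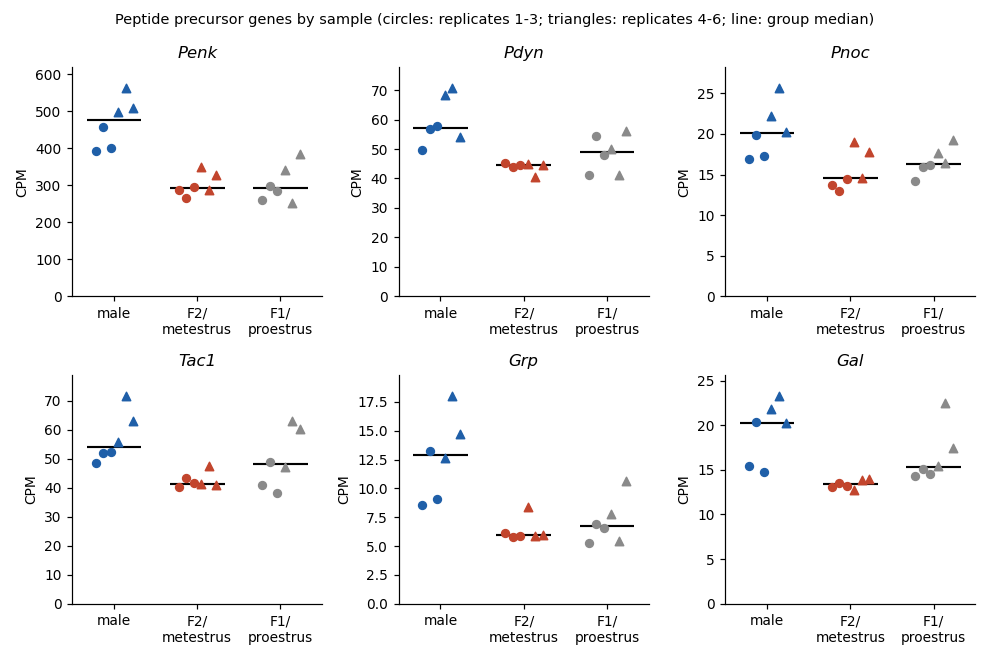
CPM (vertical axes, starting at 0) of the 6 called peptide precursor genes in every male, F2/metestrus and F1/proestrus sample, with circles for replicates 1 to 3, triangles for replicates 4 to 6 and a line at the group median. Male and F2/metestrus samples do not overlap except for *Pnoc*, and male samples of the second series carry the highest *Penk* values, up to 562 CPM.

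Among the peptide genes that did not pass the FDR, *Cartpt* had a log2 fold change of 0.56 (adjusted p = 0.115), *Sst* (somatostatin) 0.32 (adjusted p = 0.140) and *Tac2* (neurokinin B) 0.30 (adjusted p = 0.152). Values between 0.20 and 0.45 were seen for *Crh*, *Cck*, *Npy*, *Adcyap1* and *Npff*. Those of *Nts*, *Ucn3*, *Trh* and *Rspo3*, which is on the list but encodes no neuropeptide, lay between -0.02 and 0.06. *Calca*, which encodes the calcitonin gene-related peptide of primary afferents and motor neurons, had a log2 fold change of -0.67 (adjusted p = 0.208).

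Receptors for these peptides held no call. Of 25 receptor genes tested 0 passed the FDR, 2 had an unadjusted p under 0.05 higher in males and 5 higher in F2/metestrus, and the list median was -0.03. *Npy2r*, a receptor for neuropeptide Y, had 4.80 to 6.56 CPM in males and 6.71 to 9.49 CPM in F2/metestrus, without overlap (log2 fold change -0.51, adjusted p = 0.0751). *Tacr1*, the receptor for substance P, had a log2 fold change of -0.20 (adjusted p = 0.133).

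Genes of the ventral horn had estimates of the opposite sign. All 20 genes listed for motor neurons and the ventral horn had lower estimates in males, 10 of them at an unadjusted p under 0.05 and 0 past the FDR, with a list median of -0.32. Without F2/metestrus sample 4 the number at an unadjusted p under 0.05 fell to 4, and without male sample 5 the median was -0.22. The summed CPM of this list was 4618 to 8175 in males and 6855 to 9157 in F2/metestrus, and the lowest male was sample 5 (4618), which also had the highest summed peptide level (1253 CPM against 864 to 1137 CPM in the other males). *Slc5a7*, the choline transporter of cholinergic neurons, had 6.17, 19.6 and 35.4 CPM in males and 31.0, 35.2 and 39.1 CPM in F2/metestrus, with a log2 fold change of -0.90 (adjusted p = 0.169). Genes of inhibitory transmission, which are used in the dorsal and the ventral horn, had 0 members higher in males and 6 higher in F2/metestrus at an unadjusted p under 0.05 of 31 tested (median -0.07), among them the glycine transporter *Slc6a5* (log2 fold change -0.30, adjusted p = 0.127). For excitatory transmission the counts were 2 and 4 of 28 (median 4.03e-05). The part of dissection in the peptide differences was not tested. In bulk tissue, fewer cells of a type and less RNA per cell cannot be told apart. Without male sample 5, *Gal* and *Pnoc* lost their calls, and *Penk*, *Pdyn*, *Tac1* and *Grp* kept theirs. *Gal* and *Pnoc* also lost their calls without other samples, and leaving out a sample does not test the part of dissection.

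*Nptx2* encodes a neuronal pentraxin that is induced by activity and gathers AMPA receptors at synapses. It had 18.9, 22.4 and 25.3 CPM in males and 14.3, 15.5 and 15.8 CPM in F2/metestrus, without overlap, and its log2 fold change was 0.52 (standard error 0.06, adjusted p = 7.62e-04). In F1/proestrus it ranged from 14.5 to 24.98 CPM (median 18.5). It was the only called gene of the 28 immediate early and activity-regulated genes tested. At an unadjusted p under 0.05 there were 6 members higher in males (*Nptx2*, *Egr4*, *Bdnf*, *Egr2*, *Fosb* and *Dusp6*) and 0 higher in F2/metestrus. *Egr4* had a log2 fold change of 0.55 (adjusted p = 0.0751). *Fos*, the usual marker of activated dorsal horn neurons, had a log2 fold change of 0.18 (adjusted p = 0.594) and *Arc* one of 0.07 (adjusted p = 0.869). The list median was 0.13 over all samples, -0.00232 in replicates 1 to 3 and 0.279 in replicates 4 to 6.

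Genes that glucocorticoids induce were the second group with several calls, with 5 of 21 past the FDR (*Mt2*, *Angptl4*, *Mt1*, *Lcn2* and *Sult1a1*) and 0 higher in F2/metestrus. At an unadjusted p under 0.05 there were 8 higher in males, and the list median was 0.17 (0.10 without male sample 4). The called members do not share 1 function. *Mt1* and *Mt2* encode metallothioneins, which bind zinc and copper, *Angptl4* an inhibitor of lipoprotein lipase, *Lcn2* an iron-siderophore binding acute phase protein and *Sult1a1* a sulfotransferase of phenols. The 3 others at an unadjusted p under 0.05 were *Plin4*, a lipid droplet protein (log2 fold change 0.88, adjusted p = 0.154), the cell cycle inhibitor *Cdkn1a* (0.45, adjusted p = 0.154) and *Fkbp5*, a co-chaperone of the glucocorticoid receptor (0.26, adjusted p = 0.349). The remaining members had estimates from -0.06 (*Sgk1*) to 0.17 (*Hif3a*).

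*Mt1* and *Mt2* lie next to each other on chromosome 8, and metal response elements are the known route by which zinc acts on them. Their promoters are shown because both genes differed together. They are the RefSeq promoters of build GRCm38.p6, 250 bases before to 50 bases after the gene start, at chr8:94178839-94179138 (plus strand) and chr8:94172368-94172667 (plus strand). Capitals mark the core of the metal response element, TGCACNC or TGCGCNC on either strand, which occurred 3 times for *Mt1* and 4 times for *Mt2*. A match occurred in 25.9% of all 32544 promoters of this length and in 13 of the 33 called genes that had a promoter in the table.
Mt1: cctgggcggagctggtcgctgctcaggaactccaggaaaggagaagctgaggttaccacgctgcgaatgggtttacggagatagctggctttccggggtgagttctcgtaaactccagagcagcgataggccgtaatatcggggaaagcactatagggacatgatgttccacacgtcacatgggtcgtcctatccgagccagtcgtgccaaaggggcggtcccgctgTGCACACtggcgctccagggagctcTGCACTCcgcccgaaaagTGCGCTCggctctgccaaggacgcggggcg
Mt2: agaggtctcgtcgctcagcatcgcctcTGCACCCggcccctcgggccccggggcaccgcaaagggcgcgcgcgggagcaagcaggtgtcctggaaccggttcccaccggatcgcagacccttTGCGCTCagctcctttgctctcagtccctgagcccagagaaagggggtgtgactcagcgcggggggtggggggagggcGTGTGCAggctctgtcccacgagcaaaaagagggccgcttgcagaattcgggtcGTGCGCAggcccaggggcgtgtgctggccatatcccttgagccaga

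*Mt1* had 389.5, 460.3 and 531 CPM in males and 305, 347 and 435 CPM in F2/metestrus, and the groups overlapped. Its log2 fold change was 0.35 (standard error 0.06, adjusted p = 0.0284). *Mt2* had 80.3, 101 and 122 CPM in males and 59.8, 70.5 and 96.8 CPM in F2/metestrus (log2 fold change 0.43, adjusted p = 0.0282). *Gm45774*, an antisense transcript over *Mt2*, gave nearly the same values (log2 fold change 0.43, adjusted p = 0.0282), and the reads of these genes cannot be told apart where they overlap. Without 1 sample *Mt1* kept its call in 5 and *Mt2* in 8 of 12 fits.

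*Angptl4* had 18.1, 22.9 and 31.0 CPM in males and 8.05, 13.8 and 14.5 CPM in F2/metestrus, without overlap. Its log2 fold change was 0.88 (standard error 0.15, adjusted p = 0.0283), with 0.81 and 0.97 in the first and second series. In F1/proestrus it ranged from 9.43 to 17.9 CPM. *Sult1a1* had 16.9, 24.7 and 31.9 CPM in males and 14.1, 15.5 and 18.7 CPM in F2/metestrus (log2 fold change 0.61, adjusted p = 0.0491). Its log2 fold change was 0.32 in the first series and 0.90 in the second.

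*Lcn2* had 2.63, 8.96 and 17.7 CPM in males and 1.87, 2.55 and 4.39 CPM in F2/metestrus. The males spread widely, and the lowest of them lay inside the F2/metestrus range. The log2 fold change was 1.82 (standard error 0.35, adjusted p = 0.0491), and the call was kept in 2 of the 12 fits without 1 sample. *Lcn2* is made by neutrophils and, in injury, by astrocytes and vessel cells. It was chosen as a gene that the study names in its text, as were *Mpo*, *Csf1r*, *Csf2rb*, *Il16* and *Gbp10*, so it is not independent of that study's view of these samples.

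Of 19 neutrophil genes for granules and maturation 1 passed the FDR (*Lcn2*) and 10 had an unadjusted p under 0.05 higher in males, with 0 higher in F2/metestrus. The list median was 0.84, and 0.42 without male sample 1, which had the highest summed level. The myeloperoxidase gene *Mpo* had 0.456, 0.797 and 1.55 CPM in males and 0.312, 0.343 and 0.528 CPM in F2/metestrus (log2 fold change 1.16, adjusted p = 0.0986). *S100a9* had means of 3.57 and 1.62 CPM (adjusted p = 0.159), while *Mmp9*, *Padi4*, *Il1r2*, *Fpr1* and *Fpr2* had estimates below 0. The summed level of the list was 41.3 to 60.1 CPM in males and 28.8 to 37.6 CPM in F2/metestrus. *Lcn2* is part of these sums, with 2.63 to 17.7 CPM in males and 1.87 to 4.39 CPM in F2/metestrus. The sums therefore do not show that the other members separate the groups.

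Among microglia genes the differences were small. *C1qb*, a subunit of complement C1q, had 67.2, 80.4 and 95.2 CPM in males and 59.2, 62.8 and 74.1 CPM in F2/metestrus (log2 fold change 0.32, standard error 0.06, adjusted p = 0.0437), and was the only gene past the FDR among 23 tested. At an unadjusted p under 0.05 there were 13 higher in males and 1 higher in F2/metestrus, with a list median of 0.17 that stayed between 0.13 and 0.19 without 1 sample. *C1qc* (log2 fold change 0.27, adjusted p = 0.0669) and *C1qa* (0.28, adjusted p = 0.0740) lay just outside the threshold. *Il16*, a cytokine that attracts CD4+ cells, had 17.4, 19.8 and 22.9 CPM in males and 12.2, 15.1 and 17.2 CPM in F2/metestrus, without overlap (log2 fold change 0.45, adjusted p = 0.0751). *Csf1r*, the receptor that microglia need to survive, had a log2 fold change of 0.18 (adjusted p = 0.111), and *Csf2rb*, the common beta receptor chain for GM-CSF, one of 0.60 (adjusted p = 0.133). Homeostatic genes varied in their estimates and none passed the FDR, with *Siglech*, *Olfml3*, *Fcrls* and *Selplg* at 0.23, 0.22, 0.18 and 0.15 (adjusted p = 0.168 to 0.246) and *P2ry12*, *Cx3cr1* and *Tmem119* at -0.11, -0.08 and 0.03 (adjusted p = 0.687 to 0.823). *Csf1*, the ligand of *Csf1r*, was called in the other direction, with 31.8 to 38.2 CPM in males and 38.4 to 44.1 CPM in F2/metestrus (log2 fold change -0.26, adjusted p = 0.0468), and lost its call whichever sample was left out.

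Markers of peripheral nerve were detected in every sample. All 19 genes tested of Schwann cells, the myelinating glia of peripheral nerves, had higher estimates in males, 13 at an unadjusted p under 0.05. The list median was 0.51. *Ncmap*, a Schwann cell membrane protein, was called, with 33.5, 50.02 and 69.2 CPM in males and 27.7, 29.6 and 33.1 CPM in F2/metestrus (log2 fold change 0.72, adjusted p = 0.0282). *Prx*, which encodes the myelin protein periaxin, had a log2 fold change of 0.61 (adjusted p = 0.0988). The summed level of the list was 2056 to 4899 CPM in males, with sample 5 highest, and 1481 to 2112 CPM in F2/metestrus. Genes of dorsal root ganglion neurons did not go with it, as their summed level was 83.9 to 122 CPM in males and 97.1 to 124 CPM in F2/metestrus.

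Of the skeletal muscle genes, *Casq1*, the calcium buffer of fast muscle, was called higher in males (3.77, 6.19 and 7.02 CPM in males, 3.07, 3.75 and 3.89 CPM in F2/metestrus, log2 fold change 0.69, adjusted p = 0.0380). It kept its call in 1 of the 12 fits without 1 sample. Of 20 muscle and adipose genes 12 had an unadjusted p under 0.05 higher in males and 1 higher in F2/metestrus, with a median of 0.81. Their summed level was 260.5 CPM in male sample 2, 96.3 to 130.1 CPM in the other males and 83.6 to 102 CPM in F2/metestrus. The part of nerve root or muscle in the differences of other genes was not tested.

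**Figure D3:**
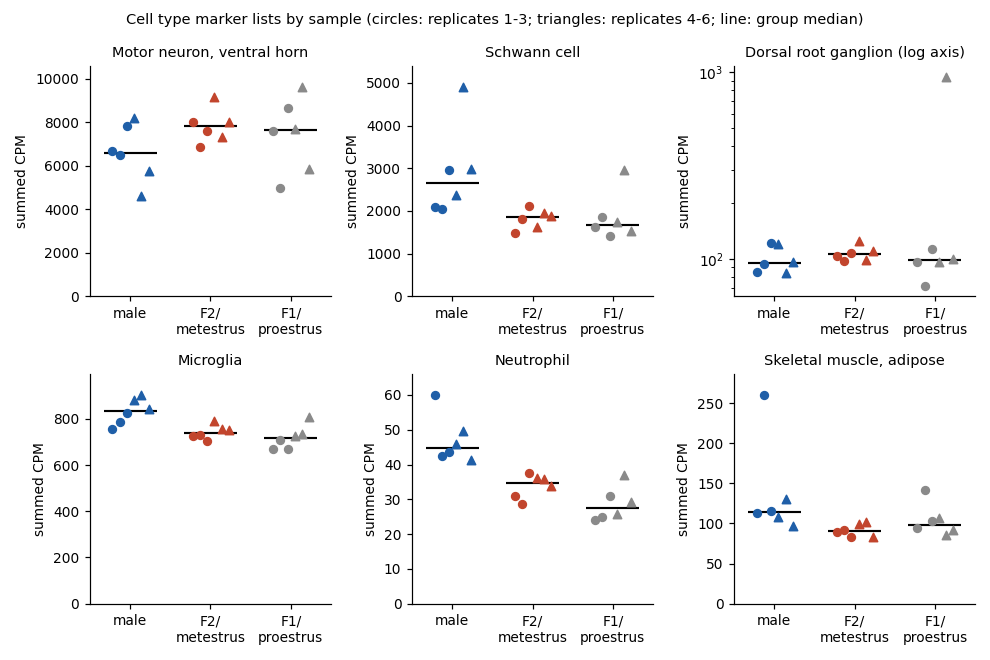
Summed CPM (vertical axes from 0, logarithmic for dorsal root ganglion) of 6 lists of cell type markers in each sample, with circles for replicates 1 to 3, triangles for replicates 4 to 6 and a line at the group median. Schwann cell and neutrophil sums are lower in F2/metestrus than in most males, ventral horn sums are lowest in male sample 5 (4618 CPM), and F1/proestrus sample 5 alone has a high dorsal root ganglion sum (944 CPM). The neutrophil sum includes *Lcn2*.

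The remaining genes called higher in males have no function in common. *Dpep1*, a membrane dipeptidase that cleaves leukotriene D4, lies on chromosome 8 from 123186242 to 123201812. It had 1.98, 2.71 and 3.67 CPM in males and 0.469, 0.863 and 1.34 CPM in F2/metestrus, so that the lowest male was above the highest F2/metestrus sample. The fold was 3.20 (log2 fold change 1.68, standard error 0.24, adjusted p = 0.00709). F1/proestrus lay between, with 0.991, 1.47 and 1.78 CPM. *Gm20388*, a long gene model that covers *Dpep1* on the same strand, had a log2 fold change of 0.07 (adjusted p = 0.455).

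*Slc9a3*, the sodium and proton exchanger NHE3, had 3.69, 4.44 and 5.54 CPM in males and 2.46, 2.74 and 3.09 CPM in F2/metestrus. The groups did not overlap, and their log2 values differed by 0.70 (standard error 0.10, adjusted p = 0.0115), with 0.70 in the first series and 0.69 in the second. *Syce1*, a component of the meiotic synaptonemal complex, had the largest log2 fold change of the called genes at a low level. It had 0.669, 1.28 and 1.71 CPM in males and 0.0754, 0.302 and 0.535 CPM in F2/metestrus (log2 fold change 1.99, standard error 0.34, adjusted p = 0.0341), with 1.25 in the first series and 2.82 in the second. *Col5a3*, a chain of type V collagen, had 14.99, 18.6 and 22.3 CPM in males and 9.19, 12.5 and 14.4 CPM in F2/metestrus (log2 fold change 0.65, adjusted p = 0.0341).

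*Cotl1*, *Bok*, *Gm10076*, *Rasgef1c*, *Castor1*, *Sbspon*, *Gpr6*, *Prodh* and *Kcnip2* completed the genes higher in males and were named after their values were seen. Their adjusted p lay between 0.0341 and 0.0495. *Sbspon* and *Gpr6* had log2 fold changes of 0.96 and 0.77, and the others had 0.30 to 0.45. *Castor1*, the arginine sensor of the mTORC1 pathway, had 19.4 to 23.5 CPM in males and 14.98 to 18.8 CPM in F2/metestrus. *Prodh*, which degrades proline, had 32.1 to 39.5 CPM in males and 25.6 to 32.7 CPM in F2/metestrus, and these ranges overlapped.

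In the F2/metestrus direction, interferon-inducible genes formed the largest group. Of 34 listed genes, 33 had higher estimates in F2/metestrus, 28 at an unadjusted p under 0.05, and 3 passed the FDR (*Ifit3*, *Gbp9* and *Gbp5*). No member had an unadjusted p under 0.05 in the other direction, and the list median was -0.63. *Ifit3b* and *Eif2ak2*, both interferon-inducible but outside the list, were called as well.

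Interferon-stimulated response elements are the promoter sites through which interferons act on such genes. The promoters of the 4 called genes with a match are shown, with capitals for the core (GAAA, any 2 bases, GAAA) on either strand, the only such genes among the 33 called genes with a promoter in the table. A match occurred in 3.45% of all 32544 promoters. They lie at chr19:34583279-34583578 (plus strand), chr19:34607707-34608006 (plus strand), chr3:142496684-142496983 (plus strand) and chr17:78882523-78882822 (minus strand) of GRCm38.p6. *Ifit3* and *Ifit3b* held 2 matches each and the others 1 each. The RefSeq start of *Gbp5* lies 2956 bases inside the gene span that was used for its position.
Ifit3: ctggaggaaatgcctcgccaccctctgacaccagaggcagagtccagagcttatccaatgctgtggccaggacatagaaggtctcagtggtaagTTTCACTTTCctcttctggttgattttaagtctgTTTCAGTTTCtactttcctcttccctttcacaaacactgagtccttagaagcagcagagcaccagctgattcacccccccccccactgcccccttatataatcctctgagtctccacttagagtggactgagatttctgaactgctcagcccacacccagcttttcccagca
Ifit3b: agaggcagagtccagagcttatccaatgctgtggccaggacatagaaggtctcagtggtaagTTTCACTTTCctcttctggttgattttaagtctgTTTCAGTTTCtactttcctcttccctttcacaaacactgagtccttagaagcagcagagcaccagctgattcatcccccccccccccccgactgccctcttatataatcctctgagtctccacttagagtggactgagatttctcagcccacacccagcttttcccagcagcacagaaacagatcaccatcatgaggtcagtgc
Gbp5: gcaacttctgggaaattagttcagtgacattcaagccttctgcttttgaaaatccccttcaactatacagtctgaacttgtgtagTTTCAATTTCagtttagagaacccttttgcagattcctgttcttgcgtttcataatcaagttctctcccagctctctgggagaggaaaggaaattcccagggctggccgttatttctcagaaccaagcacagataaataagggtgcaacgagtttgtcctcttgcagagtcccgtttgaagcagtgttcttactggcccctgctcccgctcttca
Eif2ak2: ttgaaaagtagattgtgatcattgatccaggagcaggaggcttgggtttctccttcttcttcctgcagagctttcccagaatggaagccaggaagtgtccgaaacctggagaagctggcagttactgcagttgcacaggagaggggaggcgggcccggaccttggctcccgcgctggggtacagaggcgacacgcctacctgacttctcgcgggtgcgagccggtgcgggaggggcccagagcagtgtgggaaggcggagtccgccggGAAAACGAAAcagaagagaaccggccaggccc

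*Ifit3*, an antiviral protein of the IFIT family, had 9.78, 12.7 and 15.2 CPM in males and 17.9, 20.7 and 35.7 CPM in F2/metestrus. No sample of one group reached the other, and F2/metestrus sample 5 stood far above the rest. The log2 fold change was -0.84 (standard error 0.16, adjusted p = 0.0437). Its neighbor and near copy *Ifit3b*, with which it may share reads, had 6.93, 7.94 and 9.20 CPM in males and 8.87, 12.0 and 14.3 CPM in F2/metestrus (log2 fold change -0.58, adjusted p = 0.0341).

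*Gbp5* and *Gbp9* encode guanylate-binding proteins, which interferon gamma induces for the defense of the cell against microbes. *Gbp5* had 0.861, 1.083 and 1.46 CPM in males and 1.498, 2.39 and 4.70 CPM in F2/metestrus, a fold of 2.49 (log2 fold change -1.32, standard error 0.25, adjusted p = 0.0437). *Gbp9* had 1.90, 2.26 and 3.06 CPM in males and 3.14, 3.84 and 5.39 CPM in F2/metestrus (log2 fold change -0.83, adjusted p = 0.0437). The groups of both genes did not overlap, but the nearest samples were close. *Gbp9* overlaps *Gbp4* and *Gbp8* on the same strand, which had log2 fold changes of -1.82 and -1.59 (adjusted p = 0.152 and 0.121).

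*Eif2ak2*, the kinase PKR that senses double-stranded RNA, had 4.51, 5.15 and 5.83 CPM in males and 5.73, 6.91 and 8.09 CPM in F2/metestrus (log2 fold change -0.42, adjusted p = 0.0464). Without 1 sample the calls were kept in 3 of 12 fits for *Ifit3b*, in 2 for *Ifit3*, *Gbp5* and *Gbp9*, and in 1 for *Eif2ak2*.

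The interferon-inducible genes outside the FDR included some of the largest log2 fold changes. *Gbp3* had -1.24 (adjusted p = 0.0512), *Iigp1*, an immunity-related GTPase, had -2.201 (adjusted p = 0.0751), and *Irf7*, the factor that amplifies the interferon response, had -0.59 (adjusted p = 0.0973). *Gbp10* had at most 0.162 CPM in males and 0.130, 0.592 and 2.201 CPM in F2/metestrus (log2 fold change -3.23, standard error 0.72, adjusted p = 0.0924). *Ifitm3*, *Mx1* and *Mx2* had log2 fold changes of -0.05, -0.13 and 0.10. *Cxcl10*, an interferon-induced chemokine, had 0.107 to 4.76 CPM in F2/metestrus with sample 5 highest, and 0.0445 to 0.319 CPM in males.

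The level of these genes was uneven within F2/metestrus. The summed CPM of the list was 821 in sample 4, 922 in sample 5 and 689 in sample 2, and 515 to 557 in samples 1, 3 and 6, against 468 to 537 in males. Of the F2/metestrus samples only sample 1 (515 CPM) lay inside the range of the males. Without 1 sample the list median lay between -0.73 and -0.49, and each of these fits had 24 to 30 members at an unadjusted p under 0.05 and higher in F2/metestrus. It was -0.44 in replicates 1 to 3 and -0.84 in replicates 4 to 6. In F1/proestrus the sum was 441 to 646 CPM.

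**Figure D4:**
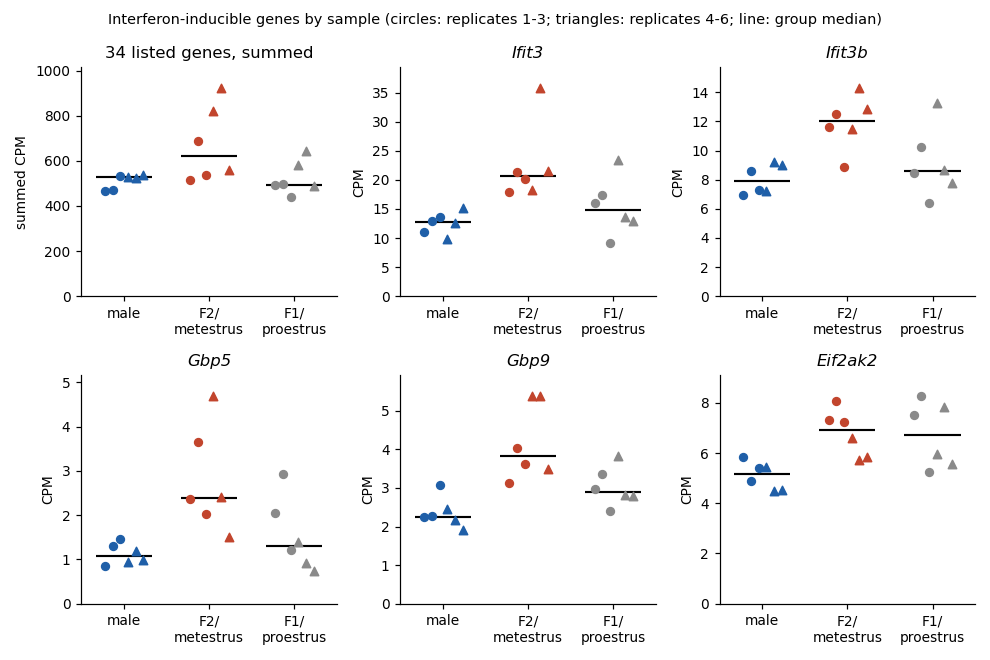
Summed CPM of the 34 listed interferon-inducible genes and CPM of *Ifit3*, *Ifit3b*, *Gbp5*, *Gbp9* and *Eif2ak2* (vertical axes, starting at 0) in every male, F2/metestrus and F1/proestrus sample, with circles for replicates 1 to 3, triangles for replicates 4 to 6 and a line at the group median. The F2/metestrus samples spread from 515 to 922 summed CPM while the males stay between 468 and 537.

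The other genes called higher in F2/metestrus differed by small steps. *Gli3*, a transcription factor of the Hedgehog pathway, had 5.06, 7.34 and 9.15 CPM in males and 6.52, 9.38 and 11.9 CPM in F2/metestrus, which overlapped (log2 fold change -0.38, standard error 0.06, adjusted p = 0.0282). *Aplnr*, the receptor for apelin, had 13.7, 15.1 and 19.4 CPM in males and 18.7, 21.7 and 23.5 CPM in F2/metestrus (log2 fold change -0.45, adjusted p = 0.0282). *P2ry1*, a receptor for ADP, had 19.4 to 25.5 CPM in males and 25.1 to 32.3 CPM in F2/metestrus (log2 fold change -0.34, adjusted p = 0.0437).

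*Soat1*, which esterifies cholesterol, had 31.4 to 36.8 CPM in males and 37.4 to 43.2 CPM in F2/metestrus, without overlap (log2 fold change -0.24, adjusted p = 0.0437). *Enpp2* encodes autotaxin, the enzyme that makes lysophosphatidic acid, and had 536, 586 and 646 CPM in males and 657, 699 and 739 CPM in F2/metestrus. Its groups did not overlap (log2 fold change -0.26, adjusted p = 0.0481). *Padi2*, a deiminase of oligodendrocytes that acts on myelin basic protein, had 97.0 to 103 CPM in males and 106 to 131 CPM in F2/metestrus (log2 fold change -0.25, adjusted p = 0.0495). *Enpp2* kept its call in 1 and *Padi2* in 0 of the 12 fits without 1 sample.

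*Zfp366*, *Cdh11*, *Gm8995*, *Nkain3*, *Klhl28*, *Pisd-ps2*, *Plekhg1*, *Thbs2* and *Tmod1* completed this direction. Of these *Gm8995* had the largest log2 fold change, -0.91 (adjusted p = 0.0341), with 1.33 to 2.07 CPM in males and 1.79 to 4.58 CPM in F2/metestrus. The adhesion molecule *Cdh11* had 47.2 to 58.2 CPM in males and 57.5 to 66.3 CPM in F2/metestrus (log2 fold change -0.28, adjusted p = 0.0341). *Enpp2*, *Padi2*, *Csf1*, *Eif2ak2*, *Thbs2* and *Tmod1* were named after their values were seen.

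Lists for the remaining cell types and pathways held few called genes. At an unadjusted p under 0.05 the background was 7.36% higher in males and 6.72% higher in F2/metestrus. Most of these lists exceeded it in at least 1 direction, so such an excess sets none of them apart. Endothelial and circadian clock genes exceeded it in neither direction. The only called genes of the remaining lists were *Lcn2*, which also stands in the list of reactive astrocytes, and *Dpep1*, which stands in that of cytokines and inflammation. Among 16 astrocyte genes 4 had an unadjusted p under 0.05 higher in males and 2 higher in F2/metestrus (median -0.02), among 20 reactive astrocyte genes 6 and 3 (median 0.04), and among 29 cytokine genes 4 and 4 (median 0.05). For central myelin the counts were 1 and 6 of 18 (median -0.10), for oligodendrocyte precursors 0 and 3 of 14 (median -0.08) and for endothelium 1 and 1 of 20 (median -0.06). Pericyte and smooth muscle genes had 5 and 1 of 14 (median 0.23), and meningeal fibroblast and collagen genes 3 and 5 of 28 (median -0.05).

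Of 19 receptors and enzymes of steroid hormones 1 had an unadjusted p under 0.05 higher in males and 4 higher in F2/metestrus (median -0.06). *Nr3c2*, the mineralocorticoid receptor, had a log2 fold change of -0.20 (adjusted p = 0.134), and *Hsd11b1*, which regenerates active glucocorticoid, one of -0.24 (adjusted p = 0.177). Circadian clock genes had 0 and 1 of 22 (median -0.05) and heat shock genes 0 and 2 of 25 (median -0.00477). Lymphocyte genes had 1 and 0 of 10 (median -0.25), border macrophage genes 3 and 0 of 18 (median 0.14), chemokine genes 0 and 2 of 20 (median -0.02), red blood cell genes 2 and 0 of 10 (median -0.05), ependymal genes 2 and 0 of 20 (median 0.08), and dorsal root ganglion genes 2 and 4 of 14 (median -0.10).

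**Figure D5:**
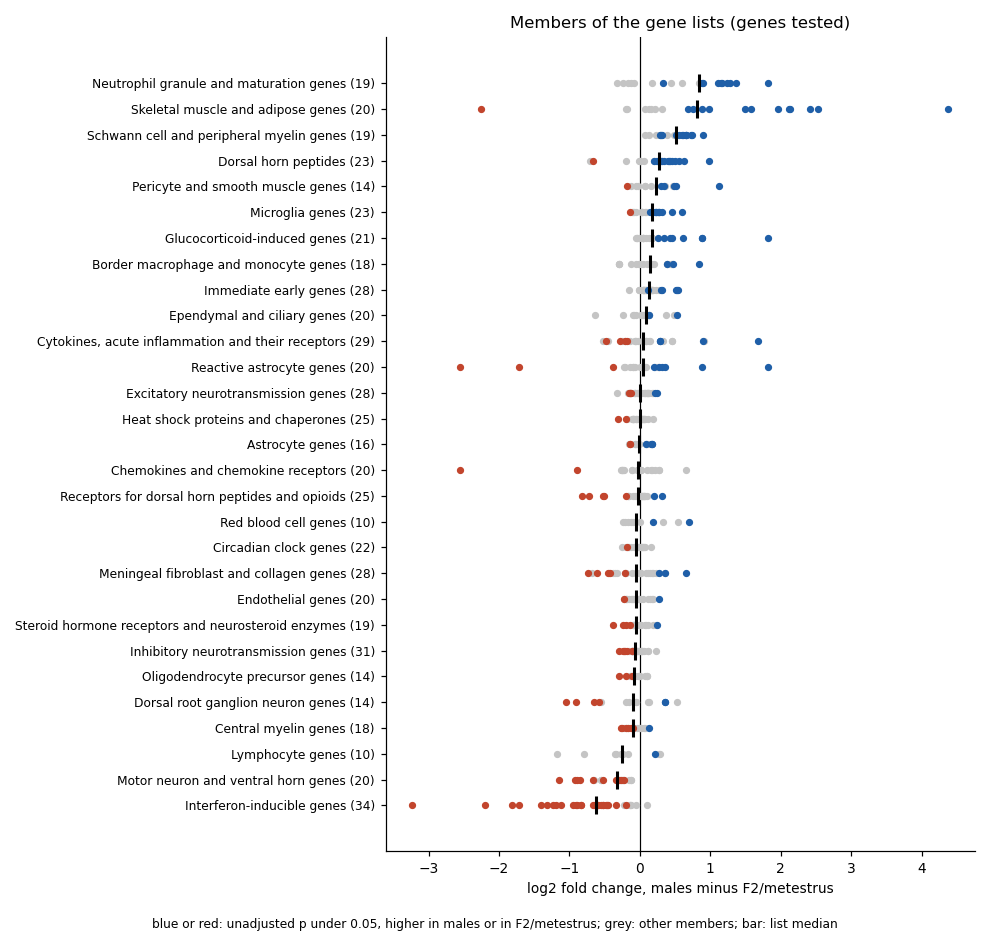
The log2 fold change of males minus F2/metestrus (horizontal axis) for every tested member of 29 gene lists, ordered by the list median (black bar). Blue or red points have an unadjusted p under 0.05, higher in males or in F2/metestrus, and grey points do not. Medians run from 0.84 for neutrophil genes to -0.63 for interferon-inducible genes.

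The library series did not change the differences by an amount that passed a test. For the interaction of group and series 0 of 24473 autosomal genes passed an FDR of 5%, with 1025 (4.19%) at an unadjusted p under 0.05. Of the 51 called genes 8 had an unadjusted interaction p under 0.05 (*Ncmap*, *Syce1*, *Cotl1*, *Gm8995*, *Sbspon*, *Gbp9*, *Sult1a1* and *Padi2*). F2/metestrus against F1/proestrus gave 0 calls among 24287 autosomal genes in the fit of the 18 samples, with 871 (3.59%) at an unadjusted p under 0.05. The study, which used DESeq2, reported *Gbp10* as higher in F2/metestrus than in F1/proestrus at an FDR of 5%. Here *Gbp10* had a log2 fold change of 3.29 (adjusted p = 0.670). In that fit the log2 fold change of F2/metestrus minus F1/proestrus was -0.01 for *Penk*, -0.16 for *Grp*, -0.29 for *Nptx2*, -0.70 for *Dpep1*, 0.54 for *Ifit3* and 0.91 for *Gbp5*. Males minus F1/proestrus gave 0.62 for *Penk* (adjusted p = 3.79e-04), 0.83 for *Grp* (adjusted p = 0.0225), 0.23 for *Nptx2* (adjusted p = 0.342), -0.29 for *Ifit3* (adjusted p = 0.555) and -0.42 for *Gbp5* (adjusted p = 0.597). The values were 0.30 for *Pdyn* (adjusted p = 0.239) and 0.22 for *Gal* (adjusted p = 0.379). *Tac1* had 0.21 (adjusted p = 0.374) and *Pnoc* 0.29 (adjusted p = 0.179). *Dpep1* had 0.996 (adjusted p = 0.0843) and *Slc9a3* 0.31 (adjusted p = 0.431). Further called genes that passed the FDR against F1/proestrus were *A830012C17Rik* (0.63), *Lcn2* (2.07), *Angptl4* (0.89) and *Sbspon* (0.92). *C1qb* (0.35), *Ncmap* (0.59) and *Gm8995* (-0.90) passed it as well, and the rest of the 51 did not. These comparisons share samples with the one described here.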

How the data were processed

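The authors deposited raw counts of reads per gene for the 18 samples, which are not normalized. Subread aligned the reads to mm10 (unique alignments) and featureCounts assigned them to exons, and the submitters' notes name Subread 2.0.3. The strand setting is not given in the sources used here. The labels describe SMART-Seq amplification and Nextera XT tagmentation, whereas the methods name TruSeq. A further deposited table holds the authors' own comparison of 2 groups (fold changes and p-values) and was not used. Positions on GRCm38 come from GENCODE vM21, in which 55480 of the 55573 IDs were found.

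The 12 samples were fitted with edgeR 4.0.16 in R 4.3.3 (filterByExpr with a minimum count of 10 and a minimum total of 15, TMM, quasi-likelihood test, library series as a block) over the 24811 genes tested on all chromosomes, and p-values were adjusted over all of them by Benjamini-Hochberg at an FDR of 5%. On all chromosomes 65 genes were called, 14 of them on X and Y. CPM were normalized over 18 samples, and fold changes come from the fit of 12, with standard errors derived from F. The labels give replicate numbers and do not say whether animals were pooled, and the methods speak of biological replicates. The p-values measure the spread between these samples. The script was tested on simulated data. Named genes were the 15 with the smallest p in each direction, 6 genes from the study's text, and for each list its called members or the 3 with the smallest p, plus those said to be chosen later. Some members of the lists are not reported by name here. The members and lists were chosen with earlier results of these data known. Alternatives were DESeq2 1.42.0, limma voom (3.58.1), size factors, other filters, robust dispersions, autosomal genes alone, no series, the replicate number as a block, 18 samples, 1 surrogate variable (sva 3.50.0), each series alone and leaving out each sample.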

Additional observations from a re-analysis of the deposited data

Results flagged for a closer look

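Among 226 pairs of a named gene and a group of 6 samples, 17 had a sample whose gap to the nearest other sample, as a share of the group's range, exceeded Dixon's critical value of 0.625, and chance does this in about 1 of 20 groups. *Ifit3* (0.794, 35.7 CPM against 21.6 CPM in the next sample) and *Cxcl10* (0.707, 4.76 against 1.47 CPM) were highest in F2/metestrus sample 5. In the same sample *Pdyn* (0.708), *Cdh11* (0.633) and *Gpr17* (0.682, 59.6 against 75.5 CPM) were lowest. In F2/metestrus sample 4 *Grp* (0.872, 8.36 against 6.10 CPM), *Lcn2* (0.710, 4.39 against 2.60 CPM) and *Mfsd2a* (0.625) were highest and *Kcnj8* (0.737) and *Nr1d2* (0.700) lowest.

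In F2/metestrus sample 3 *Aebp1* (0.777, 57.2 against 39.4 CPM) and *Pisd-ps2* (0.697) were highest and *Nptx2* (0.730, 14.3 against 15.4 CPM) was lowest. *Opalin*, a gene of mature oligodendrocytes, was highest in F2/metestrus sample 6 (0.669) and in male sample 6 (0.659). Among the males *Chil3* was highest in sample 1 (0.640, 3.39 against 1.54 CPM) and *Fech* lowest in sample 2 (0.672).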

How the results depend on the processing

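The 51 autosomal calls (30 higher in males, 21 higher in F2/metestrus) became 598 with DESeq2 (351 and 247), 474 without a filter on low counts (274 and 200), 175 with 1 surrogate variable (107 and 68) and 77 with limma voom (52 and 25), and the first 3 of these fits contained all 51. With autosomal genes alone in the fit there were 26 calls (20 and 6), without the library series 9 (9 and 0), and 3 (3 and 0) in replicates 1 to 3 alone as in replicates 4 to 6 alone. The replicate number as a block in place of the library series gave 27 calls (23 and 4), of which 18 were among the 51. Samples with the same number had deviations correlated between -0.00265 and 0.178, not all above 0.1, so the numbers were not taken to pair the samples, and within a series 1 of 6 samples correlated best with its own number. Leaving out 1 sample gave 10 to 51 calls, with 8 to 35 higher in males and 0 to 16 higher in F2/metestrus. The other settings (size factors, 10 counts in every sample, robust dispersions, all 18 samples) gave 45, 48, 47 and 58. The causes of these shifts were not tested. *Penk* kept its call in all 13 settings other than leaving out a sample and *Ncmap* in 12. *A830012C17Rik*, *Nptx2*, *Grp*, *Dpep1*, *Slc9a3* and *Angptl4* kept theirs in 11. Without 1 sample *Ncmap* kept its call in 6 and *Angptl4* in 10 of 12 fits. No called gene changed direction in any setting. Among the uncalled genes named, *Olig2* (0.0105 in place of -0.20) and *Dnah12* (0.49 in place of -0.64) did so in replicates 1 to 3 alone. *Gbp10*, with at most 0.162 CPM in males, had a standard error of 0.72 on the log2 scale.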
